A study of Mus musculus with 6 samples.

Results

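Gas exchange in the mouse lung runs through a capillary net built of distinct endothelial cells, and 10 genes that mark them were followed here through all 6 libraries of the series. Of these, 5 mark aerocytes (Car4, Tbx2, Fibin, Apln and Emp2) and 5 mark general capillary cells (Gpihbp1, Plvap, Kit, Aplnr and Cd93). They were taken by name from a count table of 49315 genes. RNA was sequenced from lung cells of male C57BL/6 mice (C57BL/6J in the study's methods) 21 days after oropharyngeal instillation of saline (sham) or bleomycin sulfate (BLM), an agent that damages DNA and causes lung fibrosis; the age of the mice is not given in the sources used here. Each treatment gave an unsorted library, a Lamp1-enriched library and a Lamp1-depleted library, the sorted cells having been separated by Lamp1, a lysosomal membrane protein, on their surface. There was 1 library per condition, and 2 to 3 lungs of a group were pooled per tube, so the spread between mice is not measured.

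Aerocytes are large, thin capillary cells that face the alveolar air and carry most of the gas exchange surface. General capillary cells are smaller, act as progenitors that can renew the capillary net, and give rise to aerocytes. The groups are thought to signal to each other: aerocytes make apelin (Apln), and general capillary cells carry its receptor (Aplnr).

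Library totals ranged from 30236120 to 52918696 counted reads. In the BLM Lamp1-depleted library, 38.4% of reads fell on Gm26917, a noncoding gene, against at most 7.10% elsewhere, which left 18636423 reads for the other genes. Levels are given as CPM, the reads of a gene scaled to a common library size, after edgeR TMM scaling, and differences as log2 ratios with a 95% counting interval. That interval covers counting error alone, and a ratio of single libraries compares those libraries rather than the conditions. Lamp1 RNA was 146 CPM in depleted, 319 in unsorted and 491 in enriched cells of sham-treated mice, and 111, 501 and 378 CPM in the same order after BLM. All 10 pan-endothelial markers, led by Pecam1 and Cdh5, were detected in every library, with a summed level between 862 CPM in BLM Lamp1-depleted and 8776 CPM in sham Lamp1-enriched cells.

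Upstream sequence is shown for 3 members because 2 of them, Apln and Emp2, ran closest together of all member pairs, while Kit took another course. Their log2 ratios differed by at most 0.17 in any of 7 comparisons. RefSeq promoter entries (GRCm38.p6) were found for 5 of the 10 members, and the bases shown lie upstream of both the RefSeq and the GENCODE M21 gene start. The windows are chrX:48034854-48035103 on the minus strand for Apln, chr16:10313969-10314218 on the minus strand for Emp2 and chr5:75574737-75574915 on the plus strand for Kit, each written 5′ to 3′ along the gene. Capitals mark matches on either strand to AGGAAG, a core recognised by ETS factors, which are known regulators of endothelial genes.
Apln: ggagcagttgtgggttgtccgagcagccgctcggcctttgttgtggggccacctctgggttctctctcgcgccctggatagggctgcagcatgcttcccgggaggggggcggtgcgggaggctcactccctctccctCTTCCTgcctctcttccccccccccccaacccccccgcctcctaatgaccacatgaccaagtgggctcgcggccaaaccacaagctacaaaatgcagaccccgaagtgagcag
Emp2: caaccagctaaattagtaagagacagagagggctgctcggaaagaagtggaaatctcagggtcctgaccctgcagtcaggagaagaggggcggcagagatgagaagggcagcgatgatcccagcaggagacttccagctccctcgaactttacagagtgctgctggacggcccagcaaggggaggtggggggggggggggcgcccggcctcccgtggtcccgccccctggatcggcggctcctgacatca
Kit: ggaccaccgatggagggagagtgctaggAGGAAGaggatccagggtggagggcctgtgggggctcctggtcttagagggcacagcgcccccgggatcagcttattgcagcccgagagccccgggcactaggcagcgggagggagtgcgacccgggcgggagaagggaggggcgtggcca
Apln and Kit each held 1 such match and Emp2 held 0, where 29.2% of 27025 promoter windows of 250 bases have at least 1. The Kit window is shorter, at 179 bases, and 21.1% of all promoters have a match in the same stretch. The same search with AGATAA, read by blood and vessel regulators, gave 0 matches in the 3 windows, where 10.3% of all 250-base windows have it. The word ACAAT of SOX factors also gave 0, against 28.3%, and the word TATAAA of the core promoter gave 0, against 13.0%. In the shorter Kit stretch the shares of all promoters were 7.93% for AGATAA, 22.0% for ACAAT and 8.66% for TATAAA. Both strands were searched for each, and no match says only that these letters are not in these windows. The motifs were chosen after the values were seen and are given as a description.

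In both treatments every marker had a higher level in the Lamp1-enriched library than in the depleted one. Among the general capillary markers, Cd93, a receptor for matrix and adhesion proteins of vessel walls, had 283 CPM in sham depleted, 1163 in sham unsorted and 2445 in sham enriched cells. After BLM it had 133, 762 and 2219 CPM in the same order. Both series climb from depleted through unsorted to enriched cells. Aplnr, the apelin receptor, had 23.8, 119 and 226 CPM in sham and 12.5, 83.9 and 261 CPM after BLM. Kit, the receptor for stem cell factor, had 95.5, 481 and 817 CPM in sham and 59.2, 374 and 1110.0 CPM after BLM. For both receptors the highest of the 6 values was that of BLM enriched cells, unlike the other members. Gpihbp1, which carries lipoprotein lipase to the capillary surface, had 10.4, 80.9 and 146 CPM in sham and 10.1, 32.8 and 136 CPM after BLM. Plvap, a protein of the diaphragms that span endothelial fenestrae and caveolae, had 59.7, 304 and 656 CPM in sham and 20.3, 105 and 349 CPM after BLM. Its enriched level after BLM was the lower of the treatments, but above unsorted sham cells. Plvap overlaps Gtpbp3 on the opposite strand and the strand setting of the counting is not given in the sources used here, so its reads may be shared.

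Among the aerocyte markers, enriched and unsorted cells lay closer together in sham. Emp2, a membrane protein also known from alveolar type 1 cells, had 188 CPM in sham depleted, 1228 in sham unsorted and 1623 in sham enriched cells, and 95.9, 427 and 799 CPM after BLM. Apln, the peptide ligand, had 16.1, 109 and 129 CPM in sham and 7.86, 37.0 and 61.6 CPM after BLM. Both genes were highest in sham enriched cells, and lower in every BLM library than in its sham counterpart. Car4, a carbonic anhydrase anchored at the capillary surface that speeds carbon dioxide release, had 28.6, 164 and 169 CPM in sham and 21.7, 112 and 96.2 CPM after BLM. Tbx2, a T-box transcription factor, had 21.8, 133 and 110.2 CPM in sham and 14.6, 53.3 and 78.2 CPM after BLM. Fibin, a secreted protein named for its role in fin bud growth, had 13.7, 93.5 and 86.7 CPM in sham and 2.70, 11.4 and 21.9 CPM after BLM. For Tbx2 and Fibin in sham, and for Car4 after BLM, the unsorted library lay above both sorted ones. The order depleted, unsorted, enriched held for 8 of 10 members in sham and 9 of 10 after BLM.

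**Figure D1:**
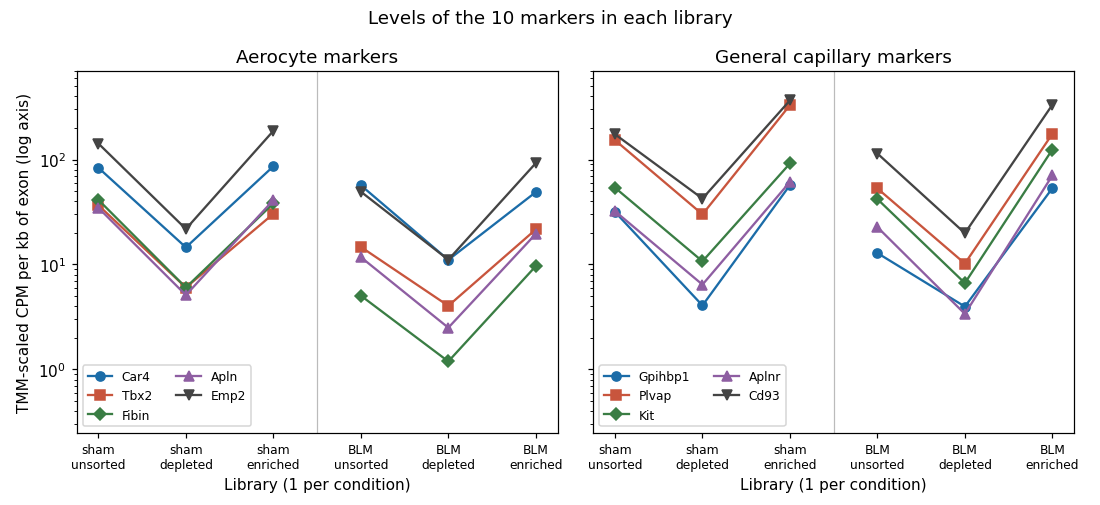
Level of each marker in each of the 6 libraries, in TMM-scaled CPM per kb of exon on a log axis, with 1 point per library and lines joining the fractions of a treatment. Every marker is lowest in the depleted library of its treatment, and Fibin drops furthest after BLM, from 41.3 to 5.04 in unsorted cells.

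Set against exon length, Cd93 and Plvap were the most abundant markers of sham enriched cells, at 366 and 330.0 CPM per kb, and Tbx2 the least abundant at 30.4 CPM per kb. In BLM enriched cells Cd93 still led at 332 CPM per kb, Plvap followed at 176, Kit at 125 and Emp2 at 92.4. Fibin came last at 9.64 CPM per kb, below Apln at 19.6 and Tbx2 at 21.6. Without replicates, the order of neighbours this close, as for Apln and Tbx2, cannot be set against a spread between mice.

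Sorting on surface Lamp1 was compared first, in enriched against depleted cells. All 5 general capillary markers and all 5 aerocyte markers were at least 2-fold higher in the enriched library in sham, where 27.5% of all genes tested were, and again after BLM, where 34.4% were. None was 2-fold lower, as were 25.2% of all genes in sham and 22.6% after BLM. The higher levels were shared with other lists: 10 of 10 pan-endothelial, 7 of 7 alveolar type 1 and 6 of 6 platelet genes were at least 2-fold higher in both treatments, with medians of 3.11, 3.32 and 4.71 in sham and of 3.58, 1.84 and 2.88 after BLM. Leukocyte genes were 6 of 6 lower, with medians of -3.73 and -3.72, and the part of these cells in the marker ratios was not tested. In sham, the log2 ratio of the general capillary markers ran from 3.10 for Kit to 3.81 for Gpihbp1, with a median of 3.25. That of the aerocyte markers ran from 2.33 for Tbx2 to 3.11 for Emp2, with a median of 2.66, and the median of all genes tested was -0.01. After BLM the general capillary markers ran from 3.75 for Gpihbp1 to 4.38 for Aplnr (median 4.11) and the aerocyte markers from 2.15 for Car4 to 3.06 for Emp2 (median 2.97), against 0.29 for all genes. The ranges of the marker groups overlapped slightly in sham, at Kit and Emp2, and were apart after BLM.

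An edgeR quasi-likelihood test of enriched against depleted cells on the 4 sorted libraries, blocked by treatment, called all 10 markers higher, as it did 22.1% of 21037 genes. Fitted log2 fold changes were 3.81 ± 0.42 (SE) for Aplnr, 3.78 ± 0.39 for Gpihbp1, 3.78 ± 0.45 for Plvap, 3.66 ± 0.48 for Kit and 3.59 ± 0.54 for Cd93. For the aerocyte group they were 3.08 ± 0.48 for Emp2, 2.99 ± 0.37 for Apln, 2.83 ± 0.38 for Fibin, 2.38 ± 0.36 for Tbx2 and 2.36 ± 0.37 for Car4. All general capillary values lay above all aerocyte values, but Cd93 and Emp2, the nearest pair, differed by less than the SE of Cd93. Each SE was derived from the fold change and the F statistic of the test, so it does not measure a spread between mice. The separate sham and BLM ratios were 3.10 and 4.23 for Kit, and 3.81 and 3.75 for Gpihbp1. The Benjamini-Hochberg adjusted p of this test ran from 3.79e-18 for Gpihbp1 to 5.81e-09 for Car4. These p-values and the SEs rest on 1 residual degree of freedom and on dispersion shared across genes. With all 6 libraries in the fit, the adjusted p ran from 5.87e-05 for Plvap to 0.000289 for Tbx2.

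Enriched cells were next set against unsorted cells, a comparison that leaves out the Lamp1-depleted libraries. Here the marker groups were apart in both treatments. In sham, Plvap (log2 ratio 1.11) and Cd93 (1.07) were at least 2-fold higher in enriched cells, as were 2.55% of all genes, and Aplnr, Gpihbp1 and Kit had 0.93, 0.85 and 0.77. No aerocyte marker reached 2-fold: Emp2 had 0.40, Apln 0.24, Car4 0.05, Fibin -0.11 and Tbx2 -0.27. Of all genes 15.8% were at least 2-fold lower, and 0 of the 10 members were. Of the pan-endothelial genes 0 of 10 reached 2-fold, and their range of 0.09 to 0.91 overlaps both marker groups. With total counts only, which shifts all of these by -0.22, Plvap and Cd93 fell short of 2-fold and Car4 lay below 0. After BLM all 5 general capillary markers were at least 2-fold higher, from 1.54 for Cd93 to 2.05 for Gpihbp1, beside 12.6% of all genes, and 0 of 10 members were 2-fold lower, beside 19.1%. This was shared with other endothelial lists: 10 of 10 pan-endothelial genes (1.19 to 1.66) and 6 of 7 arterial genes were at least 2-fold higher too. The aerocyte markers again stayed under 2-fold, at 0.93 for Fibin, 0.90 for Emp2, 0.74 for Apln, 0.55 for Tbx2 and -0.22 for Car4. The counting interval of Fibin, 0.78 to 1.09, includes 2-fold. Of 6 other aerocyte markers, described below, 1 was at least 2-fold higher, Prx at 1.04, and 1 lower, Sirpa at -2.52.

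BLM was compared with sham in each fraction. In unsorted cells all 10 markers were lower after BLM, and 4 of 5 aerocyte and 2 of 5 general capillary markers were at least 2-fold lower, where 16.0% of all genes were. None was 2-fold higher, as were 13.9% of all genes. All 10 pan-endothelial genes were lower there too, 5 of them by at least 2-fold, with a median of -0.87, which lies below the general capillary median of -0.61 and above the aerocyte median of -1.52. Fibin had the lowest ratio, with a log2 value of -3.03 (counting interval -3.17 to -2.89), which is 8.17-fold lower. Apln followed at -1.56 (-1.65 to -1.48), Emp2 at -1.52 (-1.55 to -1.50) and Tbx2 at -1.32 (-1.39 to -1.25), while Car4 was at -0.55 (-0.61 to -0.50). Plvap at -1.53 and Gpihbp1 at -1.30 moved with the aerocyte genes. Cd93, Aplnr and Kit were lower by less, at -0.61, -0.51 and -0.36. Fewer cells of a type and less RNA per cell cannot be told apart in bulk libraries. The monocyte and macrophage list moved the other way in the same libraries, from a summed 2209 CPM in sham to 18488 CPM after BLM. Lyz2 alone held 1995 and 17243 CPM of these sums. In this list 6 of 7 genes were at least 2-fold higher, where 13.9% of all genes were, and Ly6c2 had -0.85. The part of the list in the lower capillary values was not tested.

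In Lamp1-enriched cells, 2-fold lower values after BLM were found among the aerocyte markers and not among the general capillary markers. The pan-endothelial list was nearly level there, its median being 0.06 on the log2 scale (range -0.64 to 0.38). All 5 aerocyte markers were lower after BLM, and Fibin (-1.99, counting interval -2.08 to -1.89), Apln (-1.07, -1.13 to -1.01) and Emp2 (-1.02, -1.04 to -1.01) passed 2-fold, as did 7.81% of all genes. Car4 had -0.82 and Tbx2 -0.49. No general capillary marker passed 2-fold in either direction, and 10.2% of all genes were at least 2-fold higher. Kit was higher after BLM at 0.44 (0.42 to 0.46) and Aplnr at 0.20 (0.17 to 0.24), while Gpihbp1 at -0.10 and Cd93 at -0.14 were slightly lower. Plvap was the exception in its group, at -0.91 (-0.94 to -0.88), within the range of the aerocyte markers.

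In Lamp1-depleted cells, where the markers are scarce and 1 gene fills much of the BLM library, the ratios were less certain. Fibin had 57 reads in the BLM library and a log2 ratio of -2.34 (-2.76 to -1.95). Plvap had -1.56, Cd93 -1.09 and Apln -1.03, and these 4 were at least 2-fold lower, where 22.3% of all genes were, and 0 members were 2-fold higher, where 13.7% were. The count of 4 rested on the scaling: it was 2 with DESeq2 size factors and 9 with total counts only. Gpihbp1 had -0.03 with a counting interval from -0.27 to 0.20, which includes no difference, and its sign turned with DESeq2 size factors and with TMM after removal of Gm26917 and Gm42418. Across the 3 fractions, 8 of 10 members were lower after BLM each time, Kit and Aplnr being higher in enriched cells.

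**Figure D2:**
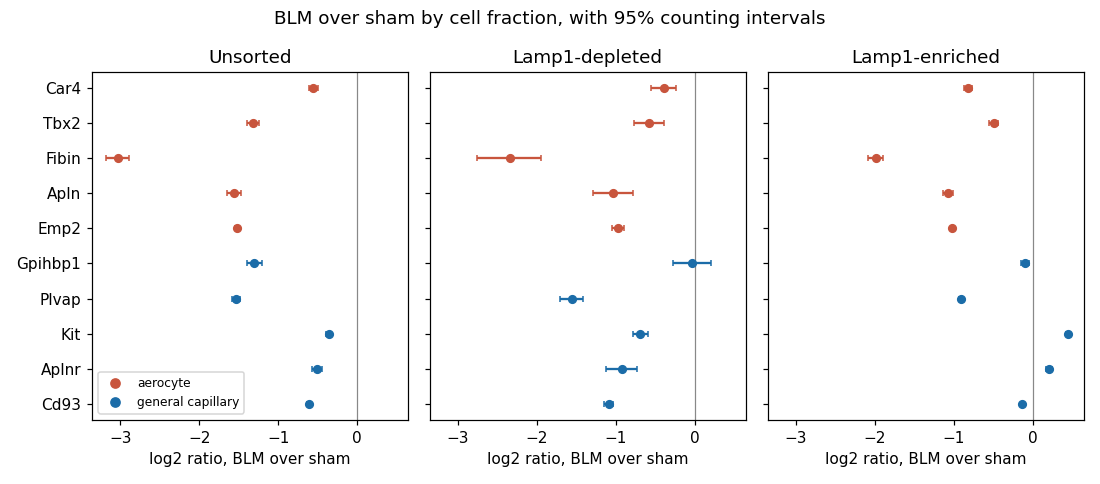
Log2 ratio of each marker, BLM over sham, in unsorted, Lamp1-depleted and Lamp1-enriched cells, with bars for the 95% counting interval. In enriched cells the aerocyte markers lie between -1.99 and -0.49, and of the general capillary markers only Plvap, at -0.91, lies in that range.

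The balance of the marker groups within a library does not depend on how libraries are scaled. It was taken as the mean log2 CPM of the 5 aerocyte markers minus that of the 5 general capillary markers. The balance was -0.52 in unsorted, -0.79 in depleted and -1.40 in enriched cells of sham-treated mice. After BLM it was -1.25, -0.99 and -2.38 in the same order. In sham the unsorted library thus lay above both sorted ones, and after BLM it lay between them. From the sham to the BLM library the balance shifted by -0.74 (counting interval -0.78 to -0.69) in unsorted cells. In enriched cells it shifted by -0.98 (-1.01 to -0.95), which is 1.97-fold toward general capillary markers. The unsorted shift was -0.35 without Tbx2 and Fibin, and 0.040 with the lists of further markers described below. The enriched shift was -0.87 and -0.71 in the same order. In depleted cells the shift was -0.20 (-0.33 to -0.08), and it changed sign without Tbx2 and Fibin. Within the ligand and receptor pair, there were 0.570 Apln reads per Aplnr read in sham enriched cells and 0.236 after BLM, and 0.915 and 0.440 in unsorted cells.

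**Figure D3:**
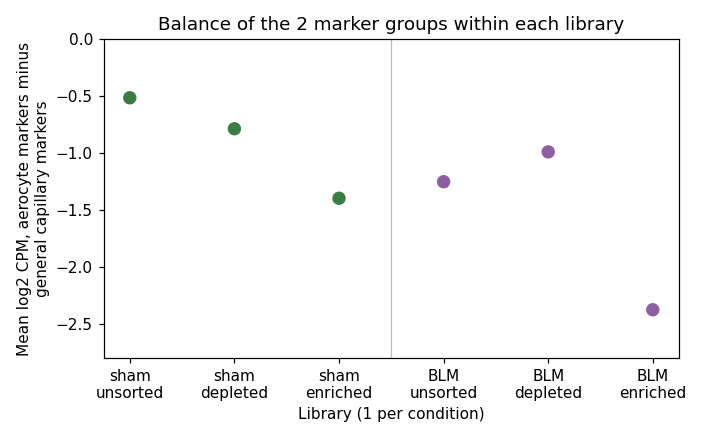
Balance of the marker groups in each library: mean log2 CPM of the 5 aerocyte markers minus that of the 5 general capillary markers, with 1 point per library. BLM enriched cells have the lowest value, -2.38, and sham unsorted cells the highest, -0.52.

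Each marker was also measured against the median of the 10 pan-endothelial genes, within the same comparison. In enriched cells, BLM over sham, all 5 aerocyte markers lay below that median, by -2.04 for Fibin, -1.13 for Apln, -1.08 for Emp2, -0.87 for Car4 and -0.55 for Tbx2 on the log2 scale. Of the general capillary markers Kit lay 0.38 and Aplnr 0.15 above it, and Gpihbp1, Cd93 and Plvap lay at -0.15, -0.20 and -0.97. In unsorted cells Car4 lay 0.32 above the median, whereas Fibin lay at -2.16, Apln at -0.69, Emp2 at -0.65 and Tbx2 at -0.45. There Kit, Aplnr and Cd93 lay above it, at 0.51, 0.37 and 0.26, and Gpihbp1 and Plvap at -0.43 and -0.66. With Pecam1 and Cdh5 alone as the reference, Car4 and Cd93 in unsorted cells turned to just below it, and with the mean of the 10 genes Gpihbp1 in enriched cells turned to just above it.

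Further markers of each cell type were described from lists of 6 genes. Of the other aerocyte markers, Ednrb, an endothelin receptor, had log2 ratios, BLM over sham, of -1.77 in unsorted and -1.27 in enriched cells, and Rprml had -1.70 and -1.45. Kdr, the main VEGF receptor, had -1.06 and -0.52, and Chst1 -0.61 and -0.37. Prx had -0.56 and 0.18. Sirpa, a gene also known from macrophages, went against the list, at 2.42 and 0.75. The list had a median of -0.45 in enriched cells, with 2 of 6 at least 2-fold lower and 0 higher, where 7.81% and 10.2% of all genes were. The other general capillary markers had a median of -0.03 there, with 0 of 6 lower and 1 of 6, Tcf15, higher at 1.85 on only 40 BLM reads. Tek, the angiopoietin receptor, had -0.19, Ptprb -0.30 and Sema3c 0.12. In unsorted cells 3 of 6 in each list were at least 2-fold lower and 1 higher, where 16.0% and 13.9% of all genes were. The means of the lists differed by 0.040, so the difference between the member groups there was not seen in these lists. Without Sirpa the difference of the means was -0.55, but Tcf15, at 1.25 on 24 sham and 47 BLM reads, stayed in the general capillary list. The difference without both genes was not computed.

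Genes that work with the members were counted from fixed lists, and these counts stand beside the 22.1% of all genes that passed the sorting test as higher and the 17.2% that passed as lower. For Plvap, 7 of 7 caveolar genes passed the sorting test as higher in enriched cells, among them Cav1, the caveolin that shapes caveolae, and Cavin2. In enriched cells, BLM over sham, 0 of 7 passed 2-fold in either direction, with Cav1 at -0.31 and Cav2 at -0.73. Of all genes 10.2% were at least 2-fold higher there and 7.81% lower, so a count of 0 among 7 is near those shares. For Gpihbp1, 4 of 8 genes of lipoprotein lipase handling passed the sorting test as higher and 1 as lower. Lpl, the lipase itself, was higher after BLM by 2.84 in unsorted and 1.46 in enriched cells on the log2 scale. For Kit, its ligand Kitl was higher in enriched than in depleted cells, by 3.05 in sham and 3.41 after BLM, and had -1.23 in unsorted and -0.62 in enriched cells, BLM over sham. Of the 8 genes of Kit signalling, 2 passed the sorting test as higher and 1 as lower. For apelin signalling the counts were 2 and 1 of 5 tested, and Apela, the other apelin receptor ligand, had 0 reads in 5 libraries and 1 in the last, where 3 reads were taken as the floor. For Cd93, 4 of 5 adhesion partners passed as higher, and Mmrn2, its ligand in the vessel matrix, had 0.55 in enriched cells, BLM over sham. Of the VEGF list 5 of 6 passed as higher, and of the other membrane-bound and secreted carbonic anhydrases 1 of 4 tested, with Car14 at 3.53 in sham and 4.31 after BLM.

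Markers of other vessel types were counted in enriched cells, where 10.2% of all genes were at least 2-fold higher after BLM and 7.81% lower. Of 7 arterial genes, 0 were at least 2-fold lower after BLM and 2 were higher, Gja5 at 1.66 and Gja4 at 1.26, both connexins of arterial endothelium, with a list median of -0.05. Of 6 venous genes 1 was lower, Vcam1 at -1.38, and 1 higher, Ackr1 at 4.70, a chemokine receptor of venules, with 17 sham and 541 BLM reads; the median was 0.07. Of 5 lymphatic genes tested, 2 were at least 2-fold lower, Mmrn1 at -2.32 and Lyve1 at -1.05, and the median was -0.19. Prox1, at 0.66 with 63 sham and 118 BLM reads, and Reln, at 0.50 with 89 and 149, went the other way.

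Several members are also known from cells outside the capillaries, so the lists for those cells were measured in the same libraries. Alveolar type 1 cells are known to express Emp2, and their 7 other markers summed to 537 CPM in sham and 308 CPM in BLM enriched cells, and to 519 and 238 CPM in unsorted cells. Their median log2 ratio, BLM over sham, was -0.56 in enriched cells, with Hopx at -1.61 and Ager at 0.09, and their part in the value of Emp2 was not tested. Without Emp2 the enriched shift of the balance was -0.99. Mast cells are known to carry Kit. Of 5 mast and basophil genes tested, 4 were at least 2-fold lower in BLM enriched cells and 1 higher, where 7.81% and 10.2% of all genes were. Their median was -1.56. The 4 lower genes had few reads in sham and BLM enriched cells: Cpa3 47 and 17, Mcpt4 11 and 6, Cma1 11 and 4, Ms4a2 10 and 3. The 8 genes summed to 9.76 CPM in sham and 21.5 CPM after BLM, of which Hdc, the enzyme that makes histamine, held 7.67 and 20.9 CPM and the other 7 genes 2.09 and 0.569 CPM. Of these, Tpsb2 and Mcpt8 were listed at 0 after BLM. Fibroblast genes summed to 207 CPM in sham and 745 CPM in BLM enriched cells, but without the collagen genes Col1a1 and Col1a2 the other 5 summed to 122 and 105 CPM. Monocyte and macrophage genes summed to 896 and 2380 CPM there, of which Lyz2 alone held 806 and 2190 CPM. Their median log2 ratio was 1.44, with 4 of 7 at least 2-fold higher and 1 lower, where 10.2% and 7.81% of all genes were. In the same cells smooth muscle and pericyte genes summed to 138 and 104 CPM, and mesothelial genes to 9.58 and 15.8 CPM. Platelet genes summed to 929 and 132 CPM, erythroid genes to 161 and 28.3 CPM, and leukocyte genes to 362 and 325 CPM. Proliferation genes were higher after BLM, 5 of 5 by at least 2-fold, where 10.2% of all genes were, with Mki67 at 2.72. The part of these lists in the marker values was not tested.

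**Figure D4:**
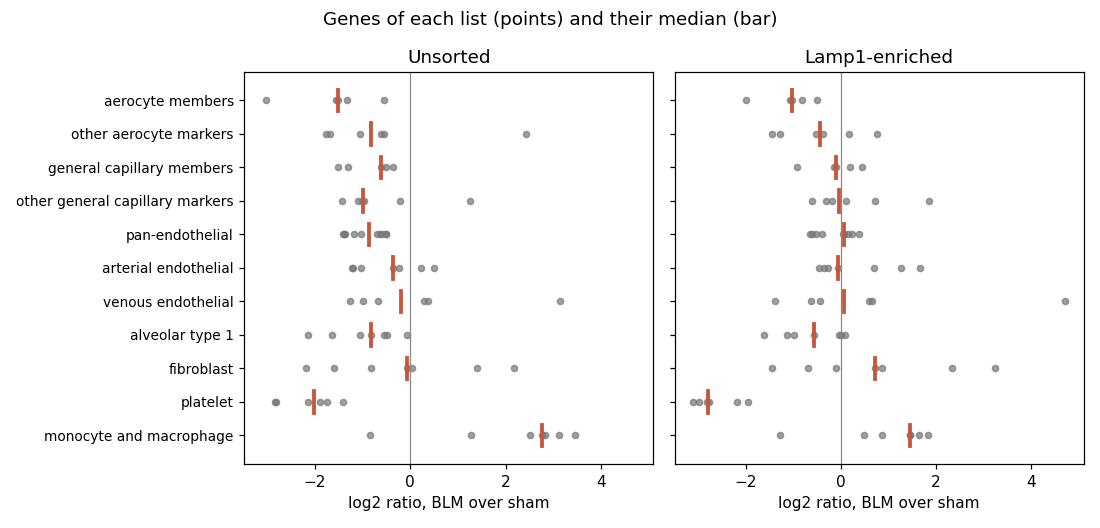
Log2 ratio of each gene, BLM over sham, in 11 of the marker lists, for unsorted and Lamp1-enriched cells, with a point per gene and a bar at the list median. In enriched cells the aerocyte members have a median of -1.02, the general capillary members of -0.10 and the pan-endothelial genes of 0.06.

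Genes whose level ran most like each group were sought among 10033 genes by correlation of log2 CPM with the mean of the group over the 6 libraries. The closest to the aerocyte markers were Ankrd29, Katnal1, Grb14, Slc22a23 and Rerg. The closest to the general capillary markers were Hyal2, Il17rd, Tspan2, Bad and Aqp1, the last a water channel of capillary endothelium. Pearson's r was 0.998 to 0.999 for these, as a description over 6 libraries that share their sorting and their treatment. Members correlated with the mean of the other group as well, from 0.818 for Fibin to 0.963 for Plvap.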

How the data were processed

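The authors deposited raw counts, whole read counts per gene with no normalization, for 6 libraries matched to conditions by their labels. The submitters' processing notes name Trimmomatic 0.36, STAR 2.5.2b, featureCounts of Subread 1.5.2, DESeq2 and GRCm38; annotation release and strand setting are not given in the sources used here. Exon lengths and positions came from GENCODE M21 for 49056 of 49315 genes. TMM factors were computed with edgeR 4.0.16 (R 4.3.3), and ratios with Python 3.11.15 and a prior count of 0.5. A gene was tested where either library held 10 reads or more, and a log2 ratio of 1 (2-fold) was the call. Intervals are Clopper-Pearson at 95%, or a normal approximation of counting error for the balance. The sorting test was edgeR's quasi-likelihood test after filterByExpr, at a Benjamini-Hochberg adjusted p of 0.05. It had 1 residual degree of freedom. The labels do not number replicates. Depth ranged from 30236120 to 52918696 reads.

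Members and lists were chosen with earlier results of these data known. All 158 list genes were found. Named were all members, genes drawn from the first gene of a list and up to 4 of its largest ratios, and the 5 genes most like each group with at least 100 reads and an SD of at least 0.5. The first gene was not named for every list. Prx, Sema3c, Hdc, Ly6c2, Mcpt4 and Cma1, outside that rule, were named after their values were seen. In simulated data the sorting test, run on 21128 genes, recovered 194 of 200 changed genes and called 9 unchanged genes. In the sorted libraries the test called 8259 of 21037 genes, and recovery with that many changed genes was not tested. The counting interval for enriched cells, BLM over sham, held the true ratio for 95.7% of 19862 genes in simulated data. Alternatives were DESeq2 1.42.0 size factors and its Wald test, total counts, TMM without Gm26917 and Gm42418, other prior counts, read minimums and thresholds, other library sets and other marker sets.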

Additional observations from a re-analysis of the deposited data

Results flagged for a closer look

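Listed here are members whose ratio had opposite signs in different fractions or in different treatments. Each ratio had a counting interval on 1 side of 0 and the same sign under 4 scalings. With 1 library per condition the difference was not tested for any of them. Kit had a log2 ratio, BLM over sham, of 0.44 in enriched cells, -0.36 in unsorted cells and -0.69 in depleted cells. Aplnr had 0.20, -0.51 and -0.93 in the same order. Both are receptors of general capillary cells, and both were lower than the sham level everywhere but in the Lamp1-enriched library. Tbx2 had a log2 ratio, enriched over unsorted, of -0.27 in sham and 0.55 after BLM. Fibin had -0.11 in sham and 0.93 after BLM. Both aerocyte genes were lower in the BLM unsorted library than in the sham one, at 53.3 and 11.4 CPM.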

How the results depend on the processing

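Of 420 alternative values of single members, 17 had another sign than the value reported, and 0 of these were values past 2-fold. They were 14 values relative to the pan-endothelial genes, mostly with Pecam1 and Cdh5 alone as the reference or with a mean in place of the median, and 3 ratios: Car4 in sham enriched over unsorted cells (-0.18 with total counts only) and Gpihbp1 in depleted cells (0.12 with DESeq2 size factors and 0.0097 with TMM after removal of Gm26917 and Gm42418). The sorting test called 8259 genes (4650 higher, 3609 lower), 4437 (2873 higher, 1564 lower) with total counts only and 4919 without the treatment block, which left 9 of 10 members called (Fibin, adjusted p 0.0822). Leaving out 1 library of a 6-library edgeR fit gave 4812, without BLM enriched cells, to 8360 genes, and 10 of 10 members each time. The sorting test is itself paired by treatment. For BLM against sham, no paired analysis was possible because each condition had 1 library. Members at least 2-fold apart numbered 2 in sham enriched over unsorted (0 with total counts only, or at log2 thresholds of 2 and 3), 5 in BLM enriched over unsorted (1 and 0 at those thresholds), 6 in unsorted BLM over sham (1 and 1), 3 in enriched (0 and 0) and 4 in depleted cells (1 and 0, 2 with DESeq2 size factors, 9 with total counts only).

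The mean difference of the groups, aerocyte minus general capillary, moved as follows. In sham enriched over depleted it was -0.61, and -0.70 without Emp2, -0.67 without Kit, -0.67 without Cd93, -0.45 without Tbx2 and Fibin, -0.43 by summed levels, -0.79 with the other marker lists and -0.29 with those lists without Sirpa, a set chosen after seeing the data. The read minimum was not applied to the other lists, and Tcf15 stayed in the general capillary list each time. In this comparison Tcf15 had 1.06 on 9 enriched and 4 depleted reads. In BLM enriched over depleted, -1.38 became -1.14 by medians, -1.21 with the other lists and -0.58 without Sirpa. There Rprml, in the aerocyte list, had 5.95 on 39 enriched and 0 depleted reads, and Tcf15 had 2.81 on 40 and 2. In sham enriched over unsorted, -0.88 became -0.97, -0.93, -0.85, -0.71, -0.84, -0.44 and -0.26 in the order first given. In BLM enriched over unsorted, -1.12 became -0.90 by medians, -1.20 without Emp2, -1.23 without Tbx2 and Fibin, -1.19 with the other lists and -0.66 without Sirpa. In unsorted BLM over sham, -0.74 became -0.91 by medians, -0.61 without Kit, -0.67 without Cd93, -0.35 without Tbx2 and Fibin, -0.43 by summed levels and -0.55 without Sirpa, and turned to 0.040 with the other lists. In enriched cells, -0.98 became -0.93 by medians, -0.84 without Kit, -0.87 without Tbx2 and Fibin, -0.71 with the other lists and -0.74 by summed levels. In depleted cells, -0.20 became -0.048 by medians and -0.65 without Sirpa, and turned to 0.060 without Tbx2 and Fibin and to 0.25 by summed levels. The cause was not tested. With 1 library per condition no difference between treatments has a replicate check.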
